A study of Rattus norvegicus with 40 samples.

Results

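Line C (LnC) and Long-Evans (L-E) rats both carry the wild-type aryl hydrocarbon receptor (AHR), and their livers were compared here without dioxin. The comparison rests on 8 of the 40 arrays of the series: 4 LnC and 4 L-E males of 10 to 12 weeks, each given corn oil by gavage and killed 19 h later. LnC was bred from crosses of Han/Wistar (H/W) and L-E rats, so it differs from L-E in genetic background while the receptor is the same. For reference, values are also given for LnC and L-E rats 19 h after 100 ug/kg TCDD, for L-E rats 3 h after TCDD, and for corn oil rats of H/W and of Line A (LnA), which was bred from the same crosses. The AHR of H/W and LnA lacks part of the transactivation domain. All these groups hold 4 males, with 1 Affymetrix RAE230A array per rat. The rats of a group shared a cage, so cage and group cannot be told apart.

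The liver clears hormones, bile pigments and foreign chemicals in linked steps. Oxidation by cytochromes P450 or dehydrogenases comes first, and conjugation with glucuronic acid, sulfate or glutathione follows. It also makes most plasma proteins, among them complement and clotting factors. Inherited variation between rat strains is known to reach all these gene families, as well as the highly polymorphic major histocompatibility complex, which is named RT1 in the rat. In dioxin studies such a background is what the responses of a strain or line are read against.

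Scan day went with the groups: the 4 LnC arrays were scanned on day 4, L-E replicate 1 on day 1 and L-E replicates 2 to 4 on day 2, and the lot of the chips followed the days. Line and scan day therefore cannot be told apart in any difference between LnC and L-E below. The median log2 signal was 3.57 on average in L-E and 3.64 in LnC, and the 3' to 5' differences of the control probe sets were 0.23 and 0.39 for GAPDH and 1.91 and 2.16 for actin (two-sided exact permutation test, p = 0.0571 for each of these 3 checks, also after adjustment; the smallest p possible is 0.0286). Hepatocyte markers defined the tissue in both groups, with a mean log2 signal over the 9 measured (Alb, Ttr and Ahsg among them) of 14.08 to 14.23 in L-E and 14.15 to 14.25 in LnC. For 4 of the other marker lists the array means did not overlap between groups. Every list was also taken without the marker that differed most, a choice made after the data were seen. The mean over 15 endothelial markers was lower in LnC (4.68 to 4.82) than in L-E (4.86 to 4.94), with a median difference of 0.03 over its genes, and without Ehd3 (-0.88) the arrays overlapped (4.63 to 4.78 and 4.77 to 4.85). The 8 bile duct markers were at 4.18 to 4.26 and 4.35 to 4.41, with a median of 0.06, and without the called gene Slc4a2 at 3.78 to 3.88 and 3.75 to 3.85. The 5 red blood cell markers were at 5.02 to 5.41 and 5.44 to 5.93, and without Hbb at 3.67 to 3.77 and 3.75 to 4.15. The 16 pancreas markers were at 3.02 to 3.16 and 2.95 to 2.98, and 14 of them lay under the lowest array median in both groups, as did 17 of 19 lymphocyte markers. The ranges of 11 Kupffer cell markers (7.76 to 7.98 and 7.61 to 8.23), 21 stellate cell markers and 6 fat cell markers overlapped. Leaving out the marker that differed most also set apart lists that had overlapped. Without Tat (-0.61) the hepatocyte markers were at 14.66 to 14.73 in LnC and 14.52 to 14.62 in L-E. Without Cfd (-0.77) the fat cell markers were at 3.6 to 3.97 and 3.48 to 3.53. The stellate cell markers without Lox were at 4.53 to 4.91 and 4.33 to 4.53. Kupffer cell markers without Csf1r still overlapped (7.89 to 8.1 and 7.68 to 8.31). The part of these differences in the results was not tested. In a whole tissue, fewer cells of a type and less RNA per cell cannot be told apart.

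The array measured 10411 genes, each read as a log2 signal from its brightest probe set on these 8 arrays. At an adjusted p under 0.01 (limma, Benjamini-Hochberg over all genes), 154 genes (1.48%) differed between LnC and L-E. Of these, 61 (0.586% of all genes) were higher in LnC and 93 (0.893%) were lower, and in all 154 the 4 LnC and 4 L-E arrays did not overlap. The median size of the difference among them was 0.843 on the log2 scale. By at least 1 on the log2 scale, 15 genes were higher and 39 lower, and 31 differed by under 0.5. The median difference over all genes was 0.0524, and centring each array on its median changed the split of the calls to 36 higher and 96 lower. At an adjusted p under 0.05 the balance turned, with 413 genes higher and 331 lower. An unadjusted p under 0.05 was reached by 4492 genes (43.1%). In 6 of the 154 genes the mean of 1 or both groups lay under the lowest array median (Lox, Slc26a8 and Cblb in LnC, Slfn4, Rb1, Nek1 and Cblb in L-E), so the size of their differences rests on a dim signal.

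The largest difference on the array was that of Ugt2b, a UDP-glucuronosyltransferase also known as Ugt2b2 that conjugates androsterone and other steroids. Its log2 signal was 3.85, 3.90, 3.92 and 3.89 in the 4 L-E rats and 13.44, 13.18, 13.12 and 13.48 in the 4 LnC rats. The L-E values lay just above the lowest array median (3.52), and no LnC rat was near them. The difference was 9.41 (standard error 0.09, adjusted p = 9.66e-09 from limma), a 681-fold ratio. The size of that ratio rests on a dim signal in L-E. A second, dimmer probe set gave a mean of 3.38 in L-E and 9.19 in LnC, a log2 difference of 5.81 (adjusted p = 3.89e-07 from limma over all probe sets). The mean of both probe sets gave 7.61.

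The other members of the family were read beside it. Ugt2b35 had a mean log2 signal of 13.04 in L-E and 13.35 in LnC (adjusted p = 0.0146), and Ugt2b15 of 12.05 and 12.27 (0.293). Ugt2b1 had 10.27 and 9.39 (0.079), while Ugt2b7 (2.82 and 2.94) and Ugt2a1 (2.20 and 2.52) lay under the lowest array median in both groups. None of these 5 members passed the limma threshold. Because the family members lie side by side on chromosome 14 and are alike in sequence, the reference sequence just before the start of 5 of them is shown, taken from the RefSeq annotation of build GRCr8, plus strand, 5′ to 3′. Each is the 120 bases before the annotated start, and capitals mark the longest run that the first 4 have in common within the 250 bases searched.

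Ugt2b, chr14:20985329-20985448: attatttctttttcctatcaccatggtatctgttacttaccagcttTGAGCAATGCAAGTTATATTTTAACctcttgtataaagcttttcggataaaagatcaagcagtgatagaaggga
Ugt2b15, chr14:21122746-21122865: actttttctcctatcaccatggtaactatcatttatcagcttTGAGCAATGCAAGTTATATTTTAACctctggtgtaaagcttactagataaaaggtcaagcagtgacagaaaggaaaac
Ugt2b35, chr14:21208321-21208440: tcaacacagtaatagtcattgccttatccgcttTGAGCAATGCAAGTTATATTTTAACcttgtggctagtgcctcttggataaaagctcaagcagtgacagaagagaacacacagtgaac
Ugt2b7, chr14:21251415-21251534: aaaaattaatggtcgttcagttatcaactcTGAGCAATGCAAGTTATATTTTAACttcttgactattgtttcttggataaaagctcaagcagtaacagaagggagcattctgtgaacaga
Ugt2b1, chr14:21378762-21378881: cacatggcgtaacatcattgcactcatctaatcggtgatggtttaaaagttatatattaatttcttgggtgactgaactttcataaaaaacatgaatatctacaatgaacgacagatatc

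The run TGAGCAATGCAAGTTATATTTTAAC of 25 bases ended 49 bases before the start of Ugt2b, 53 before Ugt2b15, 62 before Ugt2b35 and 65 before Ugt2b7, and Ugt2b1 has no copy. On either strand it occurs in 7 of 33469 reference promoters (0.0209%), 6 of them named Ugt2b or with a name that begins so. Thus a member 9.41 higher in LnC and members that differed by 0.21, 0.31 and 0.12 share it in the reference. The sequences are those of the reference genome, and neither L-E nor LnC DNA was read.

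Ugt2b was low in H/W rats (4.27, 4.11, 3.87 and 4.17) and high in LnA rats (13.47, 13.72, 13.29 and 12.70). Both parental strains (scan days 1 to 3) were thus low and both lines (day 4) high. In these corn oil rats the split between strains and lines cannot be told apart from scan day. Ugt2b was low in L-E rats 19 h and 3 h after TCDD too (means 3.91 and 3.89). It was high in LnC rats after TCDD (12.98), where the difference of 9.07 had an adjusted p of 2.13e-12 (limma).

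**Figure D1:**
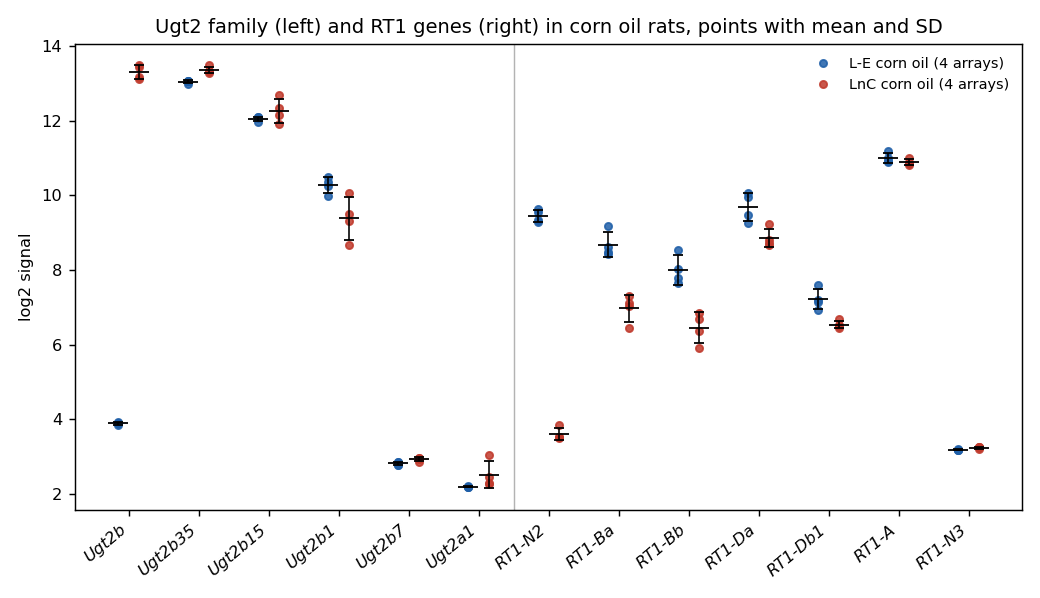
Log2 signal (vertical axis) of 6 members of the Ugt2 family and 7 RT1 genes in the 4 L-E (blue) and 4 LnC (red) corn oil rats; points are arrays and bars the mean and SD. Ugt2b went from a mean of 3.89 in L-E to 13.30 in LnC and RT1-N2 from 9.45 to 3.61, while Ugt2b35, Ugt2b15, RT1-A and RT1-N3 differed by at most 0.31 between the means.

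The next largest difference was in the opposite direction, at the major histocompatibility complex. RT1-N2, a nonclassical class I gene, had a log2 signal of 9.29, 9.56, 9.63 and 9.34 in L-E and of 3.51, 3.54, 3.85 and 3.53 in LnC. The LnC values were close to the lowest array median, and the gene was read by 1 probe set. The difference was -5.85 (standard error 0.11, adjusted p = 6.07e-07 from limma), and its size rests on the dim signal in LnC. After TCDD it was -5.88 (adjusted p = 4.70e-06). In contrast to Ugt2b, LnA rats resembled L-E (8.50, 8.64, 8.19 and 8.24), and so did 3 of the 4 H/W rats (8.98, 9.31 and 9.48), with the remaining one at 5.29. In TCDD rats of the same scan day, LnC lay 4.58 below LnA (adjusted p = 1.70e-05 from limma).

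Of the class II genes, which serve to present peptides on macrophages and B cells, 1 was called. RT1-Ba, an alpha chain, gave 8.44, 9.18, 8.61 and 8.49 in L-E and 7.12, 7.30, 6.46 and 7.03 in LnC, a difference of -1.70 (standard error 0.23, adjusted p = 0.00963 from limma). Its partner RT1-Bb (-1.55, adjusted p = 0.0198), RT1-Db1 (-0.68, 0.0325) and RT1-Da (-0.82, 0.0555) had negative values but missed the threshold. RT1-DMb, which helps to load peptides, was at 6.52 in both groups (adjusted p = 0.999), and RT1-DMa lay under the lowest array median (2.15 and 2.11). In TCDD rats RT1-Da passed (-1.25, adjusted p = 0.00816), and RT1-Ba did not (-1.87, 0.0118). The call of RT1-Ba ended without any 1 of the 8 arrays (adjusted p up to 0.0266), and its second probe set gave -0.89 (adjusted p = 0.064), with -1.30 as the mean of both. The class I gene RT1-A was at 11.00 and 10.89 (adjusted p = 0.281). Over the 30 measured genes of the list for the complex and antigen processing, 2 were called, both lower. Of all genes 1.48% were called, and the median difference of the list was 0.01. The Kupffer cell markers, which include macrophage genes, overlapped between groups as given above.

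Of the enzymes that oxidize alcohols and aldehydes, 2 were called, in opposite directions. Aldh1a1, which turns retinaldehyde into retinoic acid, gave 11.68, 11.98, 11.45 and 10.9 in L-E against 6.96, 7.24, 8.35 and 7.65 in LnC. The groups were far apart, by -3.95 on the log2 scale (standard error 0.35, adjusted p = 0.00242 from limma). Adh4, a class II alcohol dehydrogenase, gave 4.95, 4.96, 4.89 and 4.4 in L-E and 7.33, 7.53, 8.03 and 8.08 in LnC. It was 2.95 higher in LnC (standard error 0.21, adjusted p = 0.00153). In H/W rats Adh4 fell into a lower pair (5.0 and 5.12) and a higher pair (6.55 and 7.26), and LnA rats were spread as well (5.9, 6.51, 7.93 and 5.02). The main alcohol dehydrogenase of the liver, Adh1c, was at 13.87 and 14.13 (adjusted p = 0.015), and Adh5 and Adh7 were not called either. Aldh1a1 and Adh4 were the 2 called members among 15 measured of the list, whose median was 0.11, where 1.48% of all genes were called. The call of Aldh1a1 ended without L-E replicate 1 or LnC replicate 1 (adjusted p up to 0.0105).

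In other families of drug and hormone handling, at most 2 members each were called by limma, where 1.48% of all genes were called. Of 15 genes of carboxylesterases, amidases and other drug enzymes 0 were called, with 6 at an unadjusted p under 0.05 (43.1% of all genes). Among cytochromes P450, Cyp2a1, a testosterone hydroxylase, was lower in LnC (7.72, 7.80, 7.85 and 7.88 against 9.44, 9.28, 9.08 and 8.97 in L-E, difference -1.38, adjusted p = 0.00154 from limma). It was the sole call among the 23 measured members of family 2, and its relative Cyp2a2 was at 12.74 in L-E and 12.57 in LnC (adjusted p = 0.238). In families 3 and 4, Cyp3a9 (0.79 higher, adjusted p = 0.00965) and Cyp4v3 (0.47 higher, 0.00451) were called among 14. Of 12 sulfotransferases, Sult1b1 was higher by 0.92 (adjusted p = 0.00345) and the estrogen sulfotransferase Sult1e1 lower by -0.45 (0.00292). Gstt2 was the sole call among 19 glutathione S-transferases, at 8.09 in L-E and 9.21 in LnC (adjusted p = 0.00269), with Gstt1 and Gstt3 at 0.04 and -0.29. Ugp2, which makes the UDP-glucose from which glucuronic acid donors are formed, was higher by 0.97 (adjusted p = 0.00837). Slco2b1, an organic anion uptake carrier, was lower by -1.29 (adjusted p = 0.00688). The calls of Cyp3a9 and Ugp2 ended without any 1 of the 8 arrays (adjusted p up to 0.0331 and 0.0279), those of Cyp4v3 and Slco2b1 without 7 of them (0.0214 and 0.0238), those of Sult1b1 and Sult1e1 without 5 of them (0.0185 and 0.0151) and that of Gstt2 without LnC replicate 1 or 3 (0.0132). The second probe set of Cyp4v3 lay at 2.24 and 2.35, under the array median, and the mean of both gave 0.29.

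No member of the AHR pathway was called. Ahr had a mean log2 signal of 3.03 ± 0.01 (SD, n = 4) in L-E and 3.09 ± 0.04 in LnC, under the lowest array median (adjusted p = 0.0889 from limma), and its partner Arnt 4.09 ± 0.23 and 3.6 ± 0.16 (0.0623). Cyp1a2, an AHR target that is expressed in untreated liver, was at 14.11 ± 0.07 and 14.14 ± 0.15 (0.793). Cyp1a1 varied within groups, with 2.13, 2.14, 6.16 and 5.49 in L-E and 6.58, 4.07, 5.96 and 3.61 in LnC (0.492), and these ranges overlapped. Nqo1 (9.42 and 8.82, adjusted p = 0.20), Tiparp (6.02 and 6.26, 0.687), Cyp1b1 (3.47 and 3.63, 0.407) and Aldh3a1 (2.82 and 3.19, 0.148) also missed the threshold. Thus 0 of 8 genes of the receptor complex and 0 of 7 of its target battery were called by limma, with medians of -0.05 and 0.16. With 1.48% of all genes called, a count of 0 in lists of this size is no result about the pathway. An unadjusted p under 0.05 was reached by 3 and 0 of them, and by 43.1% of all genes.

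Among genes of plasma proteins the largest difference was that of C8b, the beta subunit of complement component C8, read by 1 probe set. It gave 11.48, 11.51, 11.54 and 11.30 in L-E against 9.27, 9.09, 9.18 and 9.16 in LnC. The difference was -2.28 (standard error 0.06, adjusted p = 7.24e-06 from limma), and -2.43 after TCDD (1.90e-05). In the other strain and line it differed from rat to rat: H/W rats gave 9.15, 9.16, 10.38 and 10.74, and LnA rats 11.52, 9.12, 9.20 and 10.75. The call of C8b was lost in the fit shared by all 4 strains/lines (adjusted p = 0.0124), which includes these rats. F5, coagulation factor V, was lower by -0.88 (adjusted p = 0.00728), with 10.40, 10.37, 10.35 and 10.36 in LnC and 10.95 to 11.45 in L-E. Both belong to a list of 33 complement and clotting genes, of which no other was called and whose median was -0.06. For this and the next lists, 1.48% of all genes were called. Of 28 acute phase genes 0 were called by limma, with 11 at an unadjusted p under 0.05 (43.1% of all genes). Apom (0.51 higher, adjusted p = 0.00795) and Apoh (0.27 higher, 0.00983), apolipoproteins M and H, were the 2 calls among 18 genes of apolipoproteins, lipases and lipoprotein receptors. The calls of F5, Apom and Apoh ended when 1 array was left out, for 7, 8 and 8 of the 8 arrays (adjusted p up to 0.0268, 0.0247 and 0.033).

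**Figure D2:**
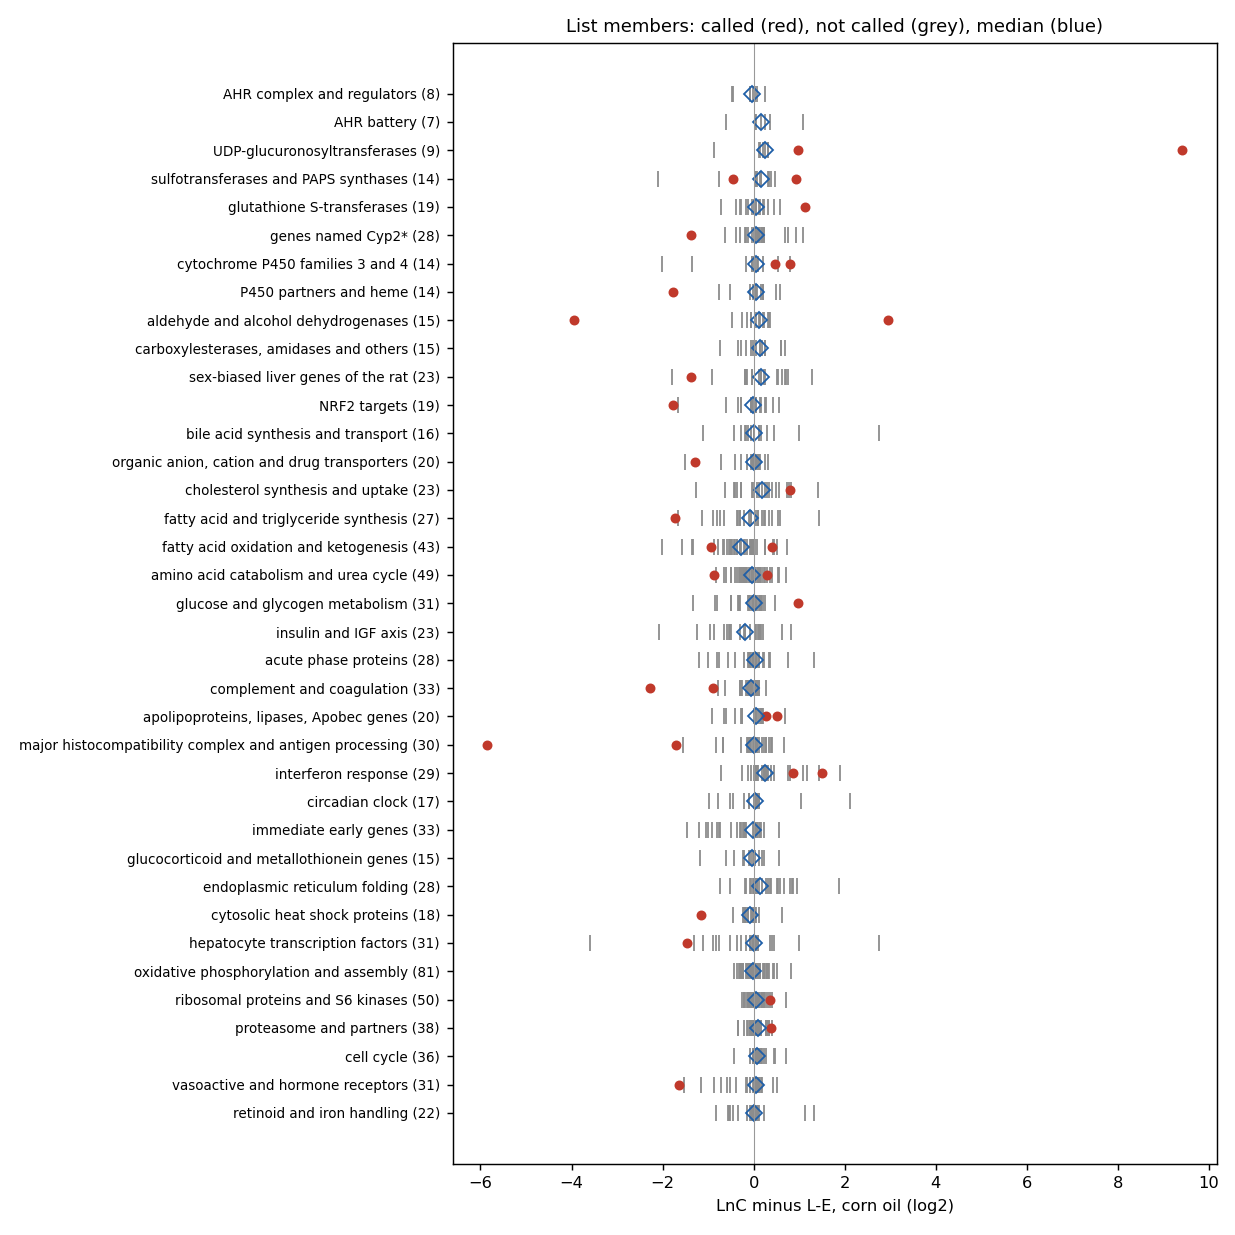
LnC minus L-E difference in corn oil rats (horizontal axis, log2) of each measured member of 37 pathway lists, with the number of members in brackets; red points were called, grey ticks were not and blue diamonds are list medians. Lists filled by the first letters of symbols also hold genes of like name, as labelled. No list has more than 2 called members, and the medians lie between -0.28 and 0.26.

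Among called genes tied to energy metabolism the largest differences were at 2 transcription factors, both lower in LnC. Mlxipl, the carbohydrate-responsive factor of glycolysis and fat synthesis, gave 8.87, 8.80, 8.99 and 9.19 in L-E and 7.07, 7.43, 7.31 and 7.12 in LnC. It differed by -1.73 (standard error 0.11, adjusted p = 0.000866 from limma). After TCDD the difference was -1.54 (0.000741). Cebpa, a factor that maintains hepatocyte genes, gave 9.49, 9.21, 9.22 and 9.32 against 7.92, 7.88, 7.63 and 7.96. Its difference was -1.46 (standard error 0.09, adjusted p = 0.000866), yet L-E rats 3 h after TCDD were lower still, at 5.74, 6.39, 6.73 and 7.37. Cebpa was the sole call among 31 hepatocyte transcription factors, and Mlxipl among 27 genes of fat synthesis. Prodh2, which degrades hydroxyproline, was lower by -0.86 (10.72 in LnC and 11.58 in L-E, adjusted p = 0.000866) and H/W (10.58) and LnA (10.77) were at the level of LnC. In fatty acid oxidation, Acox3 was lower by -0.93 (adjusted p = 0.0054) and Echs1 higher by 0.40 (0.00965) among 43 members, with a list median of -0.28. Haao of tryptophan breakdown was higher by 0.29 (adjusted p = 0.00957) and Insig2, which holds back cholesterol synthesis, by 0.79 (0.00681). The calls of Acox3, Echs1, Haao and Insig2 ended when 1 array was left out, for 6, 7, 8 and 7 of the 8 arrays (adjusted p up to 0.0224, 0.033, 0.0295 and 0.0247).

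Of 29 interferon-responsive genes, 2 were called, both higher in LnC, where 1.48% of all genes were called. Ifi27 gave 12.00, 12.22, 12.15 and 12.02 in L-E and 12.87, 13.01, 13.07 and 12.84 in LnC, a difference of 0.85 (adjusted p = 0.00242 from limma). Irf7, the transcription factor of the interferon response, was at 4.98 and 6.48 (difference 1.5, adjusted p = 0.00774). Slfn4, a schlafen gene that interferon induces but that is not in the list, was at 2.91 and 5.36 (2.45, 0.00612). At an adjusted p under 0.05, 5 list members were higher and 1 lower, against 413 and 331 of all 10411 genes, and the list median was 0.26. In TCDD rats 0 of the 29 were called, and the list median was 0.05, against 0.0461 over all genes. There the adjusted p of Ifi27 was 0.0187 and that of Irf7 0.0777 (limma). Slfn4 in L-E rats 3 h after TCDD (4.25 to 6.59) overlapped the LnC corn oil rats (4.94 to 6.20), and its second probe set was at 1.71 and 1.75, which brings the mean of both to 1.25. The calls of Irf7 and Slfn4 ended without any 1 of 8 and of 7 arrays (adjusted p up to 0.0281 and 0.0227). Hmox1, which breaks down heme and is a target of the factor NRF2, was lower in LnC (5.34, 5.22, 4.39 and 5.23 against 6.65, 7.15, 6.79 and 6.66 in L-E), by -1.77 (adjusted p = 0.00837). H/W (4.34 to 5.24) and LnA rats (4.64 to 5.56) shared the low level, and the call ended without 7 of the 8 arrays (adjusted p up to 0.0246). No other of the 19 NRF2 targets was called. Bag3, a cochaperone, was lower by -1.15 (adjusted p = 0.00507, up to 0.0182 without 1 of 7 arrays) as the sole call of 18 cytosolic heat shock genes.

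Further large differences fell outside the metabolic lists. Creg1, a glycoprotein of lysosomes, gave 9.81, 9.83, 9.88 and 10.26 in L-E and 12.46, 12.31, 12.32 and 12.23 in LnC, 2.38 higher (standard error 0.11, adjusted p = 0.000193 from limma). Its second probe set was higher by 1.0 (adjusted p = 0.0245). All H/W rats had the high level (12.05 to 12.83) and all LnA rats the low one (9.85 to 10.30). Fundc2, a mitochondrial outer membrane protein, gave 5.95, 5.97, 5.78 and 5.44 in L-E and 3.81, 3.83, 3.86 and 3.83 in LnC (difference -1.95, adjusted p = 0.000728), and H/W (3.84 to 4.02) and LnA (3.84 to 4.45) were low as well. Echdc2, of the enoyl-CoA hydratase family, was higher by 1.15 (adjusted p = 0.00070), and the selenoprotein gene Selenow by 1.71 (0.000866). Selenow was low in all 4 LnA rats (5.28 to 5.54) and in 3 of 4 H/W rats, with the other at 6.91. Isyna1, which starts inositol synthesis, was higher by 2.43 (adjusted p = 0.00313, up to 0.0164 without 1 of 5 arrays).

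Lox, which crosslinks collagen, was the called member of the stellate cell list, at 5.54, 4.89, 6.61 and 7.35 in L-E and 2.12, 2.15, 2.57 and 2.18 in LnC (difference -3.84, standard error 0.51, adjusted p = 0.00957 from limma). It was at 2.04 to 2.86 in L-E rats 19 h after TCDD, so that the TCDD rats of both groups overlapped (-0.35, adjusted p = 0.262), and at 8.30 to 9.40 in LnA. Its second probe set gave -1.09 (adjusted p = 0.0802), the mean of both -2.47, and the call ended without any 1 of 6 arrays (adjusted p up to 0.0291). Tmem150c, a membrane protein, was lower by -3.22 in corn oil (adjusted p = 0.00286) and by -1.87 in TCDD rats (1.06e-05), where both groups were brighter (10.30 and 8.43). The corn oil call ended without L-E replicate 1 or 3 or LnC replicate 3 (adjusted p up to 0.013). Slc26a8, an anion transporter, was lower by -2.99 (adjusted p = 0.00474), and the olfactory receptor Olr59 by -2.46 (0.0074). P2rx4, an ATP-gated channel, was lower by -1.64 (adjusted p = 0.00524), and Slc4a2, an anion exchanger and bile duct marker, by -1.43 (0.00299). The calls of these 4 ended when 1 array was left out, for 6, 7, 7 and 5 of the 8 arrays (adjusted p up to 0.0214, 0.0276, 0.0227 and 0.0168).

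The nuclear RNA-binding protein gene Hnrnpul1 gave 7.29, 7.16, 7.26 and 7.36 in L-E and 4.80, 5.05, 4.28 and 4.82 in LnC (-2.53, standard error 0.15, adjusted p = 0.000866 from limma). L-E rats 3 h after TCDD lay between the groups, at 5.19 to 5.95. Kpna1, a nuclear import receptor, was higher by 1.48 (adjusted p = 0.00164) with L-E rats at 3 h (9.53 to 9.81) level with LnC (9.64 to 10.06). Uba6, a ubiquitin-activating enzyme, was higher by 1.64 (adjusted p = 0.0039) and again L-E at 3 h (5.65 to 6.08) overlapped LnC (5.57 to 6.10). The histone variant H2az1 (1.47, adjusted p = 0.00524), Rb1, which restrains the cell cycle (1.81, 0.00474), and Dync1li1, a dynein subunit (1.11, 0.00515), were higher as well. Sec31a of vesicle coats was lower by -1.45 (adjusted p = 0.00794). Without 1 array the calls of Uba6, H2az1, Rb1, Dync1li1 and Sec31a ended for 6, 6, 5, 7 and 6 of the 8 arrays (adjusted p up to 0.0211, 0.0214, 0.0214, 0.0224 and 0.0281). The means of all probe sets were 0.58 for Dync1li1 and -0.79 for Sec31a. Tpm3, a tropomyosin, was 1.03 higher by its brightest probe set (adjusted p = 0.00419), whereas the 10 others ranged from -0.36 to 0.13 and the mean of all gave 0.07. The calls of Rpl27 (0.35 higher, adjusted p = 0.00837) among 45 ribosomal protein genes and Psmd9 (0.39 higher, 0.00837) among 36 proteasome genes rested on small differences and ended without any 1 of 8 and of 7 arrays (adjusted p up to 0.0255 and 0.0275).

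**Figure D3:**
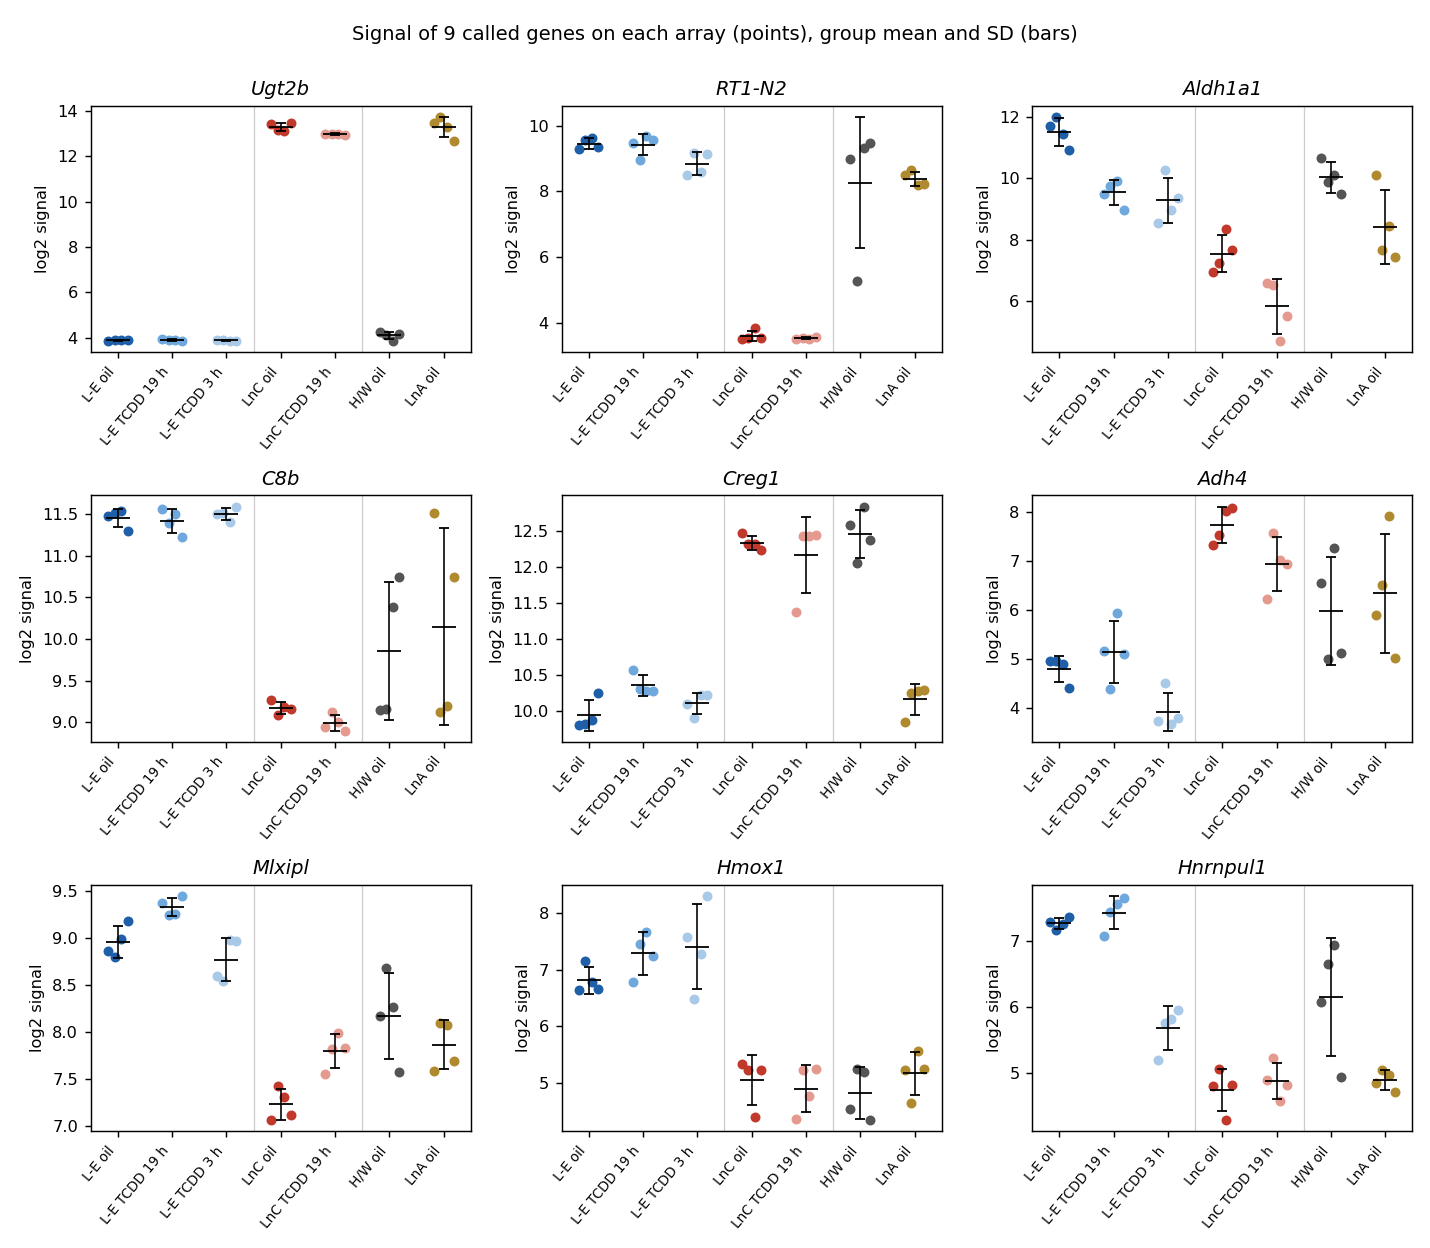
Log2 signal (vertical axes, own scale each) of 9 called genes on each array of 7 groups; points are arrays, bars are the mean and SD of 4 arrays. L-E groups are on the left, LnC groups in the middle, and H/W and LnA corn oil rats on the right. C8b and Adh4 vary between rats of H/W and between rats of LnA, and RT1-N2 between rats of H/W. Hnrnpul1 of L-E rats at 3 h lies between L-E and LnC.

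Over the 37 pathway lists, 896 different genes were measured and 31 were called (3.46%, against 1.48% of all genes); 123 of the 154 called genes stand in no list. The lists were chosen with earlier results of these data known, so this share is a description. No member passed in 13 lists, 1 in 14 and 2 in 10. Among lists with none were bile acid synthesis and transport (0 of 16), the circadian clock (0 of 17), oxidative phosphorylation with its assembly factors (0 of 81), protein folding in the endoplasmic reticulum (0 of 28) and the cell cycle (0 of 36). An adjusted p under 0.05 was reached there by 5, 0, 6, 6 and 3 members, and an unadjusted one by 7, 4, 28, 13 and 20. Over all 10411 genes these thresholds were reached by 744 genes and by 43.1%, so lists without a call were not free of differences.

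TCDD rats gave the same comparison in other animals, but again with LnC on day 4 and L-E on days 1 and 2. There 164 genes (1.58%) passed between LnC and L-E, 76 higher and 88 lower. All 154 genes called in corn oil rats had the same sign, against 8647 of all 10411 genes (83.1%), and in 120 of them the TCDD arrays did not overlap. Called in both were 47 genes (15 higher and 32 lower), which is 30.5% of the corn oil calls and 28.7% of the TCDD calls. A further test asked whether the difference depended on TCDD. An unadjusted p under 0.05 was reached there by 618 of all genes (5.94%) and by 40 of the 154. The corn oil arrays that chose the 154 also entered this test, so the count of 40 is a description. At the adjusted threshold the test called 1 gene (0.00961%). That gene was Cfap298, of cilia assembly, with 4.12 in L-E and 4.45 in LnC after corn oil (adjusted p = 0.0073 from limma) and 4.37 and 5.39 after TCDD, an excess of 0.69 (adjusted p = 0.00888). Its interaction ended as a call without 11 of the 16 arrays (adjusted p up to 0.0377), and its corn oil call without any 1 of 8 (up to 0.0247).

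**Figure D4:**
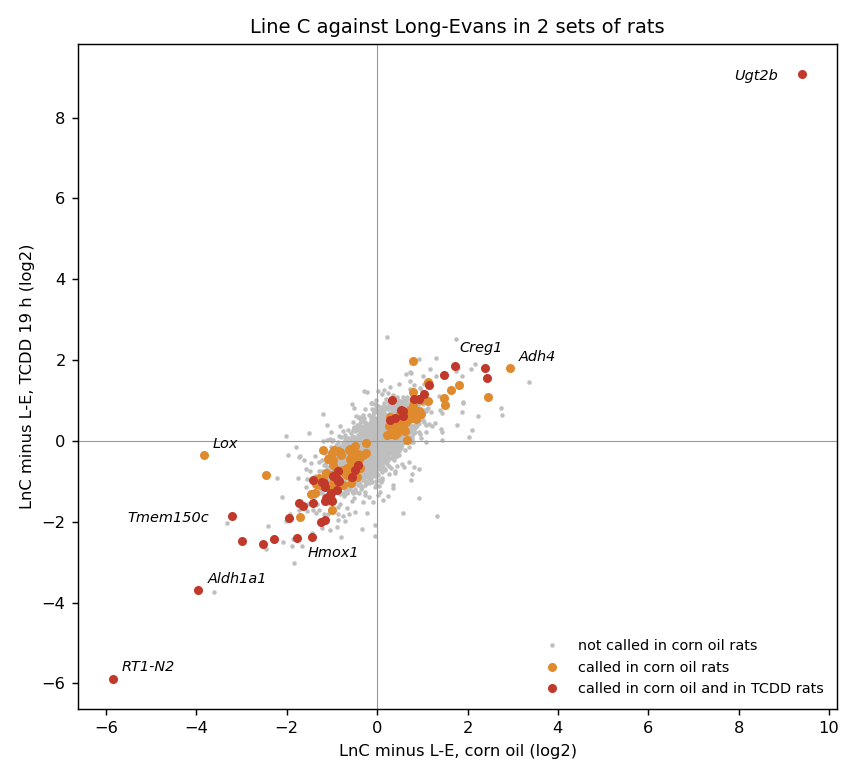
LnC minus L-E difference of each of 10411 genes in corn oil rats (horizontal axis, log2) and in rats 19 h after TCDD (vertical axis, log2); each axis rests on 8 arrays of its own. The 154 genes called in corn oil rats (orange, and red where also called after TCDD) have the same sign on both axes, with Ugt2b at 9.41 and 9.07, RT1-N2 at -5.85 and -5.88 and Lox at -3.84 and -0.35.

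A larger set of arrays, chosen after the data were seen, adds the L-E rats taken 3 h after TCDD, scanned on day 5. The 8 LnC arrays of both treatments lay wholly above or below the 12 L-E arrays of corn oil, TCDD at 19 h and TCDD at 3 h in 248 genes (2.38%). The set includes the 8 corn oil arrays that made the calls, on which all 154 called genes were already apart. The share among called genes is thus partly fixed by how they were chosen. Of the 154 called genes, 46 lay apart in this way, 23 higher and 23 lower. The higher ones include Ugt2b, Adh4, Creg1, Isyna1, Selenow, Echdc2, Sult1b1, Gstt2, Ifi27, Insig2, Apom and Apoh. The lower ones include RT1-N2, RT1-Ba, Aldh1a1, C8b, F5, Mlxipl, Prodh2, Fundc2, Hmox1, P2rx4 and Slco2b1. Cebpa, Hnrnpul1 and Kpna1 did not, as the LnC arrays overlapped those of L-E rats at 3 h but of no other L-E group. Uba6 and Slfn4 did not either, and there LnC and L-E rats overlapped 19 h after TCDD as well.

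The position of every other group on the way from L-E (0) to LnC (1) was computed for the 154 genes. These genes were chosen by the same L-E and LnC corn oil arrays that set 0 and 1. Positions over all genes were not computed, so the shares below have no baseline and are a description. L-E rats 19 h after TCDD had a median position of 0.05, with 30 genes (19.5%) nearer LnC. L-E rats 3 h after TCDD, from another scan day, had a median of 0.56 and 82 genes (53.2%) nearer LnC. In that group time after TCDD and scan day cannot be told apart. H/W corn oil rats (days 1 to 3) had a median of 0.38 and 53 genes (34.4%) nearer LnC. LnA corn oil rats, which share scan day and parentage with LnC, had a median of 0.92 and 131 genes (85.1%) nearer LnC. LnC rats after TCDD were at 1.02 with 139 genes (90.3%).

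LnC and LnA arrays share a scan day. In rats 19 h after TCDD, 20 genes (0.192%) were called between these lines, a comparison added after the data were seen. They include 3 of the 154 genes, in the same direction. These were RT1-N2, Selenow (2.06, adjusted p = 0.00113 from limma) and Bag3 (-1.67, 0.00903). Of the 154, 111 had the same sign, and the share over all genes was not computed. C8b was 2.08 lower in LnC by log2 signal but missed the threshold (adjusted p = 0.0116 from limma). At 7 of the 154 genes H/W was nearer LnC and LnA nearer L-E: Acadsb, Cdh1, Creg1, Insig2, Olr59, Rangap1 and Slc26a8.

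Rat by rat, the 30 called genes with the largest differences, 15 in each direction, did not follow 1 pattern in the other strain and line. These genes too were chosen by the L-E and LnC corn oil arrays, and other genes were not counted this way. All 4 LnA rats were nearer LnC in 11 of these genes and nearer L-E in 10. All 4 H/W rats were nearer LnC in 5 genes and nearer L-E in 5, and in 20 genes the 4 H/W rats were divided. Fundc2 and Hmox1 were nearer LnC in all rats of both. Ugt2b and Dync1li1 were nearer LnC in all LnA rats and in no H/W rat. Irf7 and Tpm3 were nearer L-E in all 8. Single H/W rats were nearer LnC in 9, 12, 11 and 17 of the 30 genes and single LnA rats in 13, 18, 19 and 17.

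Several probe sets were present for 44 of the 154 genes, with 58 beside the one used. Of these 35 had the same sign, 2 were called in the same direction and 0 in the opposite one. Of 24 such probe sets that reached the lowest array median for genes lower in LnC, 21 had the same sign, against 8 of 18 for genes higher in LnC. Tpm3 supplied 8 of these 18, 3 of them with the same sign.

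On the reference, 5 pairs of called genes had no other measured gene between them: Alcam and Cblb, Sec31a and Tmem150c, Larp1b and Pgrmc2, Ptms and Mlf2, and Rangap1 and Zc3h7b. Both members were lower in LnC in 4 of them. Of 10378 genes placed on the reference 153 were called, and how many such pairs a random order would give was not computed. Ptms (-1.16, adjusted p = 0.00154 from limma) and Mlf2 (-1.14, 0.00292) had values of -1.5 (0.00138) and -1.42 (2.04e-05) in TCDD rats. In the last pair Rangap1 was 0.66 higher (adjusted p = 0.00474) and Zc3h7b lower by -1.0 (0.00296).

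Of the 51 called genes named here by rule, Ugt2b, RT1-N2, Echdc2 and Ifi27 kept their call under all 18 other fits, though Ifi27 (0.85) does not reach a minimum log2 difference of 1. Another 11 lost it in 1 setting each, which for 10 was the fit that took the replicate number as a block. The other 36 lost it in 2 or more. Quantile normalization ended the calls of Cfap298, Cyp3a9, Cyp4v3, Dync1li1, Haao, Hmox1, Irf7, Lox, Rpl27, RT1-Ba, Sec31a, Slco2b1 and Ugp2, and median centring those of Apoh, Apom, Cfap298, Cyp3a9, Echs1, Haao, Insig2, Lox, Psmd9, Rpl27, RT1-Ba and Ugp2. No difference changed sign. Over all genes, 22 of the 154 were called in every fit that left out 1 array, and 14 of these 22 were called in TCDD rats.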

How the data were processed

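Each deposited number is the log2 signal of 1 probe set on 1 array. Per the submitters' processing notes the authors used R 2.3.1 with affy 1.10.0 and GCRMA 2.4.1. GCRMA corrects background by probe sequence, equalizes the arrays' distributions and joins the probes of a set. The paper's methods describe RMA with another probe map, which was not repeated. Leaving out 57 controls, 15866 of 15923 probe sets remained, and 12783 had exactly 1 gene symbol (2771 had none, 312 several). Their 10411 genes were tested without a filter. Scan days were read from the files of the scanner.

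In R 4.3.3 with limma 3.58.1, the 4 LnC and 4 L-E corn oil arrays were fitted with lmFit and eBayes, as the paper's pairwise fits do (threshold 0.01). TCDD arrays were fitted alike, and the interaction in 16 arrays. Scripts were tested on simulated data. The number of arrays limits the precision. Genes were named by rule: the 15 largest differences in each direction among calls without overlap, up to 5 called members of each list, AHR genes, relatives of these and the 10 smallest p. Other named genes were chosen after their values were seen. Members and lists were chosen with earlier results of these data known. Other settings tried were probe-set choice, filter, normalization, trend, weights, blocks, thresholds, shared fits and leaving out each array.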

Additional observations from a re-analysis of the deposited data

Results flagged for a closer look

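In 17 of 174 groups of 4 corn oil arrays (87 named genes), 1 array lay far from the other 3 by Dixon's test; chance gives about 1 in 20. In L-E, replicate 3 was high for Dync1li1 (7.87), Slfn4 (3.26), Tiparp (6.85) and Tpm3 (8.43), replicate 4 was low for Adh4 (4.4) and high for Creg1 (10.26), replicate 1 was high for Cyp1b1 (3.79) and low for Rb1 (2.71), and replicate 2 was high for RT1-DMa (2.33). In LnC, replicate 3 was low for Hmox1 (4.39) and high for Lox (2.57) and RT1-N2 (3.85), replicate 1 was low for RT1-DMb (5.77) and RT1-N3 (3.20), replicate 2 was high for Arnt (3.84) and Tpm3 (9.68), and replicate 4 was high for Slc26a8 (2.96). All these values of called genes stayed on the side of their own group.

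Cfap298 was the only gene whose response to TCDD was called as different between LnC and L-E. The response was 0.69 larger in LnC on the log2 scale (adjusted p = 0.00888 from limma's interaction test). Other genes missed the threshold, which does not show that they responded alike. Lox, for one, had an interaction of 3.49 (adjusted p = 0.183). Cfap298 rose above both corn oil groups in each of the 4 LnC rats given TCDD (5.26 to 5.55).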

How the results depend on the processing

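The 154 corn oil calls became 744 at an adjusted p under 0.05, 54 with a log2 difference of at least 1, 267 with the lowest 40% of genes left out, 250 in 1 fit over the 4 strains/lines and 48 with L-E arrays of scan day 2 alone, which is the fit without L-E replicate 1. Scan day as a random block gave 3813, with an estimated correlation of -0.24 within days, which lowers the standard errors. Between 34 (without LnC replicate 3) and 126 (without L-E replicate 4) genes passed when 1 array was left out. The replicate number as a block gave 9; the labels state no pairing, same-numbered arrays correlated at -0.143 to 0.172, and 1 of 4 LnC arrays correlated best with its own number. The 164 TCDD calls became 754, 65, 257 and 541 under the first 4 of these settings, 18 with the replicate block and 37 to 94 without 1 array. The interaction gave 1 gene, 2 with every probe set, 0 with a log2 difference of at least 1, without low genes, with limma's trend or with the replicate block, and 0 to 5 without 1 array. The 47 genes called in both became 100 without low genes, 134 in the shared fits, 137 with the random block, 4 with the replicate block and 16 to 39 without 1 array. Other settings moved these counts by at most 1.5 times, and the cause of the changes was not tested. No call among the 51 named changed sign.

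Between LnC and L-E, line, scan day, chip lot and cage cannot be told apart. The probes have a fixed sequence, and whether LnC and L-E DNA differ under them was not tested. A difference in signal is therefore not by itself a difference in RNA. With differences of 1 on the log2 scale added to data drawn with the spread of these 8 arrays over 10411 genes, limma called 75% to 80% of them, and 95% to 98% at a difference of 2. The changed genes were drawn from all genes, dim ones included, with no effect of day or cage. These shares hold for that mix and were not computed for bright genes alone. Differences between dim signals rest on the low end of the scale. A missed threshold does not show that 2 groups were alike.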
